A study of Mus musculus with 48 samples.

Results

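The genes described here are Gal3st1, Ermp1, Kbtbd11, Rufy4, Olig1, Gprc5b, Unc119, Limk1, Hspb1 and Sdcbp2, which are 10 of the 29221 genes in the joined count tables of 48 mouse livers. They were named because an earlier look at these data found them lower in livers labelled as lacking hepatocyte Pparg. The difference between labelled knockouts and controls is therefore what chose them, and it is given below as a description with no test. Differences of diet and of sex within 1 genotype were not used to choose them and were tested, although they are measured in the same libraries.

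The study compared livers with and without hepatocyte Pparg on obesogenic diets in both sexes. All animals were adult mice with floxed Pparg alleles. After 16 weeks on diet they received AAV8-TBG-Cre or, as controls (C), AAV8-TBG-null. TBG is a promoter used to direct expression to hepatocytes, so other liver cells are not targeted, and the labels call the Cre recipients knockouts (KO). The low fat (LF) and high fat (HF) diets lasted 34 weeks. In the HFCF groups 18 weeks of HF feeding were followed by 16 weeks of a diet rich in fat, cholesterol and fructose. By the labels LF livers were healthy, HF livers had steatosis and HFCF livers had steatohepatitis. The 4 male groups, of 6 livers each, were HF controls, HF labelled knockouts, HFCF controls and HFCF labelled knockouts. The 6 female groups, of 4 livers each, were the same and LF controls and LF labelled knockouts. Each library was 1 mouse, and RNA came from whole liver.

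PPARG is a nuclear receptor best known for driving the fat storage programme of adipocytes. It binds DNA together with RXR, classically at a DR1 element, a direct repeat of AGGTCA with a single base between the copies. In fatty liver it raises genes of lipid droplet coating and fat uptake in hepatocytes. Among the genes described here, Gal3st1 adds sulfate to galactosylceramide to make sulfatide, and Ermp1 is a peptidase of the endoplasmic reticulum. Gprc5b is an orphan receptor of the class C family, Limk1 is a kinase that inactivates the actin-severing protein cofilin, and Kbtbd11 is a BTB and kelch repeat protein. Unc119 ferries myristoylated proteins, Rufy4 has RUN and FYVE domains and acts in autophagy, and Sdcbp2 (syntenin-2) is a PDZ domain scaffold. Hspb1 is a small heat shock protein, and Olig1 is a basic helix-loop-helix factor known from oligodendrocytes.

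Depth was 15338239 to 22072884 reads on genes per library. Levels are CPM, the standard scaling of read counts by library size, with library sizes adjusted by TMM. All 7 hepatocyte markers were present in each group, at a summed 40101 to 122446 CPM. The mean of Pparg itself was higher in the labelled knockouts in all 5 comparisons of sex and diet. In HF males its lowest, median and highest levels were 27.7, 35.6 and 38.1 CPM in controls and 18.04, 41.98 and 61.9 in labelled knockouts, which overlapped. On the HFCF diet every labelled knockout was above every control, with means of 55.9 against 32.001 CPM in males and 45.96 against 23.7 in females. The tables hold 1 count per gene and none per exon, so the floxed exons could not be looked at on their own, and "labelled knockout" is used throughout.

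Some libraries stood apart from their groups. HF control female replicate 1 was the highest of its group for all 10 genes, and its summed level of 8 stellate cell and fibroblast markers was 909 CPM, against 247, 383 and 246 in the other 3. HFCF control male replicate 1 was the lowest of its group for 5 of the genes and the highest for 2, with 640 CPM of these markers against 1109 to 1225. HFCF labelled-knockout female replicate 1 was the lowest for 5 and the highest for 3, with 721 CPM against 1018 to 1164. Calls and counts of the diet and sex tests that change without them are given both ways. The correlations are given without the first 2 only, and the third was kept.

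**Figure D1:**
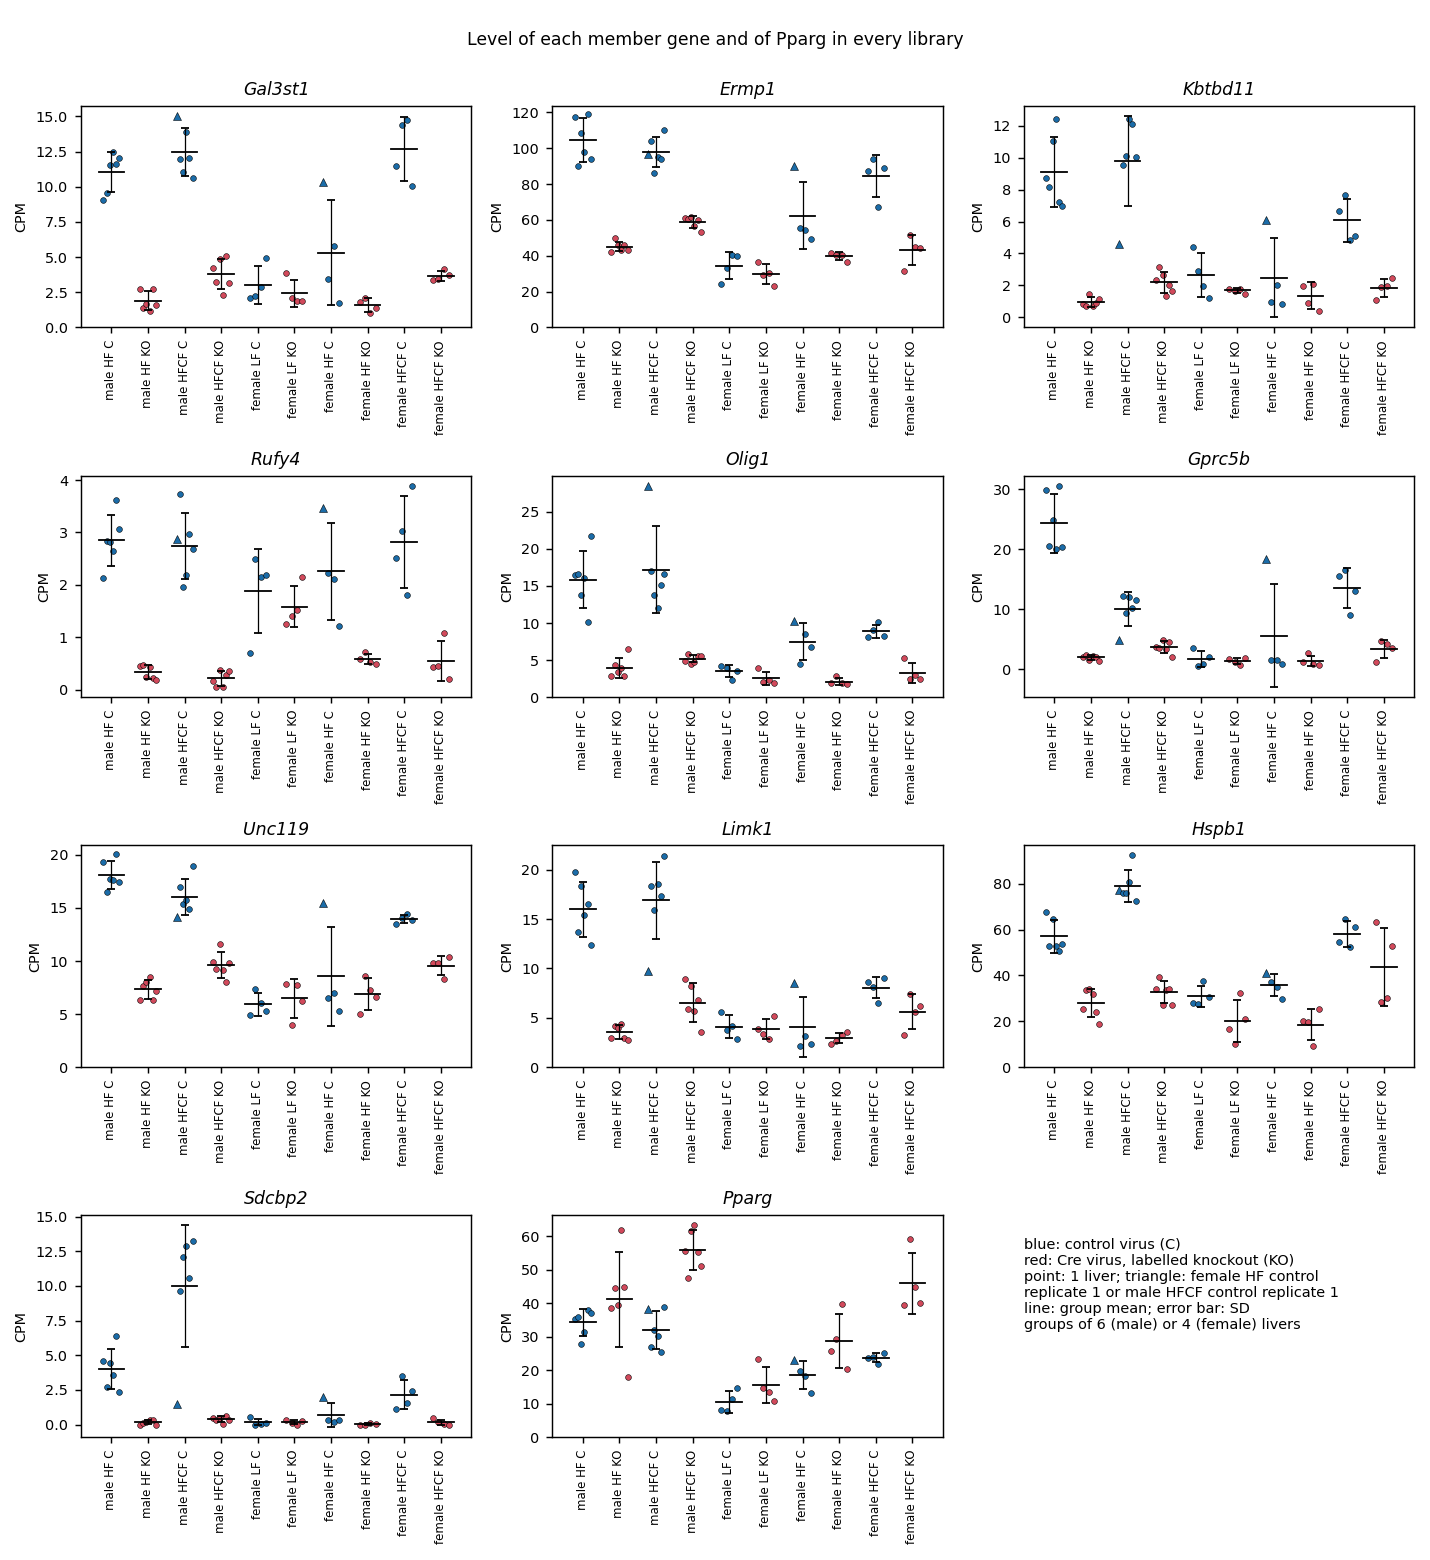
Level in CPM (vertical axes, linear, 1 scale per gene) of the 10 genes and Pparg in every library, by group (horizontal axis), with the group mean and SD. All 10 genes are separate between controls (blue) and labelled knockouts (red) in HF males and overlap in LF females, and triangles mark HF control female replicate 1 and HFCF control male replicate 1.

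In HF males all 10 genes were lower in every labelled knockout than in every control, from 4.09% of the control mean for Sdcbp2 to 49.1% for Hspb1. Of all genes tested there, 4.09% were lower with no overlap; the members were chosen on this contrast, so nothing is read from their count. Their median log2 change was -2.36. In HFCF males 9 of 10 were lower with no overlap (1.35% of genes), with a median of -1.57. The exception, Gprc5b, overlapped through control replicate 1 alone, and without that library the count was 10 (2.33% of genes).

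Among females the counts were 0 of 10 on the LF diet (0.966% of genes), 5 of 10 on the HF diet (3.16%) and 8 of 10 on the HFCF diet (3.49%). The median log2 changes were -0.31, -0.95 and -1.55. The 5 on the HF diet were Ermp1, Rufy4, Olig1, Hspb1 and Sdcbp2, and 5 was also the count without control replicate 1 (5.64% of genes). The 8 on the HFCF diet were all but Limk1 and Hspb1. These medians and the shares of genes are over the genes past the filter on low counts, which all 10 passed except Sdcbp2 on the LF and HF diets. The counts on the HF diet include Sdcbp2, at 3 reads against 48, while the shares beside them leave such genes out. Whether the difference itself varied with diet or sex was not tested. In whole liver, fewer cells of a type and less RNA per cell cannot be told apart.

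Markers of cell types differed between the same groups in HF males. The summed stellate cell and fibroblast markers were 374 to 500.1 CPM in labelled knockouts and 534 to 782 in controls, and 3 of the 8 genes were lower with no overlap. The summed hepatocyte markers were 89959 to 105737 CPM in labelled knockouts and 62644 to 87837 in controls. In HFCF males and in the 3 female comparisons both sums overlapped. Their part in the members' differences was not tested.

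**Figure D2:**
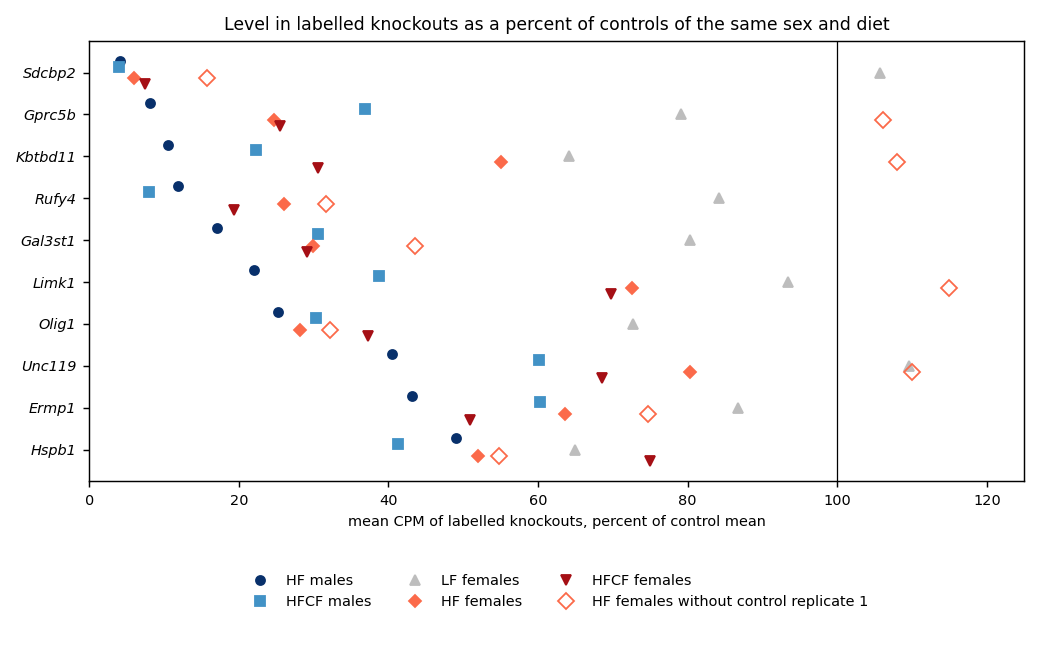
Mean CPM of labelled knockouts as a percent of the control mean of the same sex and diet (horizontal axis) for each gene (vertical axis); open diamonds leave out HF control female replicate 1. LF females lie between 64.1% and 109.6%, Sdcbp2 lies lowest in both male comparisons, and the open diamonds of Kbtbd11, Gprc5b, Unc119 and Limk1 lie above 100%.

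Gal3st1 (chromosome 11, 3983636 to 3999326, GRCm38) had lowest, median and highest levels of 9.08, 11.6 and 12.5 CPM in HF control males and 1.20, 1.65 and 2.75 in their labelled knockouts, or 17.1% of the control mean. In HFCF males they were 10.6, 12.01 and 15.1 CPM in controls and 2.34, 3.72 and 5.08 in labelled knockouts, or 30.6%. Both male pairs were separate. Female controls on HFCF had 11.5, 14.4, 14.7 and 10.1 CPM and their labelled knockouts 3.38, 3.43, 4.16 and 3.76, or 29.1%, again separate. Female controls on HF had 10.3, 3.47, 5.79 and 1.72 CPM and labelled knockouts 1.83, 2.11, 1.03 and 1.41. These overlapped through control replicate 4, and the share of control was 29.9%, or 43.5% without control replicate 1. LF control females had 2.06, 2.22, 2.88 and 4.93 CPM and labelled knockouts 3.84, 2.07, 1.90 and 1.91, which overlapped.

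Of the 8 genes of sulfatide turnover, 2 were lower with no overlap in HF males, Gal3st1 and Fa2h, a fatty acid hydroxylase at 0.0531 ± 0.0731 against 0.279 ± 0.0494 CPM (labelled knockouts against controls, SD, n = 6 each, here and for the list genes below). Fa2h was near the floor, and only 6 of the 8 passed the filter on low counts there. Of all genes past it, 4.09% were lower with no overlap in HF males and 1.35% in HFCF males, here and for the lists below. Ugt8a, which makes the galactosylceramide that Gal3st1 sulfates, was at 0.245 ± 0.192 against 0.422 ± 0.190 CPM, and Arsa, the lysosomal sulfatase that degrades sulfatide, at 101 ± 10.2 against 128 ± 9.38 CPM; both overlapped. The list's median log2 change was -0.22 in HF males and -0.17 in HFCF males. From the HF to the HFCF diet 3 of its 7 tested genes were called higher and 1, Arsa, lower in control males, by edgeR at a log2 change of -0.23 (adjusted p = 0.0344). Of all genes 13.0% were called higher and 9.31% lower in control males. In the other 3 comparisons 0 of the list were called lower. Called higher were 3 of 6 in labelled-knockout males (21.6% of all genes), 3 of 7 in control females (16.9%) and 5 of 7 in labelled-knockout females (8.44%).

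DR1-like letters before the start of Gal3st1 and Unc119 are shown because DR1 is the element PPARG is known for. RefSeq windows (GRCm38.p6) of the 250 bases before a start were matched for 8 of the 10 genes, in 13 windows; Olig1 and Kbtbd11 were not matched. They were searched on both strands for a pair of AGGTCA copies in the same direction, any base between them, with up to 3 mismatches in the copies. Each line gives the match 5′ to 3′ as the motif reads, with capitals where a base equals the motif, and Cidec and Mogat1, lipid genes associated with PPARG, are given beside them.
Gal3st1 chr11:3989727-3989739: AGcTCttAGGTaA
Unc119 chr11:78343247-78343259: AGGaCAaAGGTat
Cidec chr6:113435962-113435974: AGGcaAgAGGgCA
Mogat1 chr1:78511009-78511021: AGGTaAaAaGTCA
All 4 lie on the + strand of the genome. With up to 3 mismatches 21.3% of all 32851 windows hold a match, and with up to 2 mismatches 3.24% do, among them Mogat1 and 0 of the 13 windows of the members. A match is a description of letters, and the lack of one says only that they are not in this window.

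Ermp1 (chromosome 19, 29608214 to 29648415) had lowest, median and highest levels of 90.3, 103 and 119 CPM in HF control males and 42.1, 44.7 and 49.7 in labelled knockouts, or 43.1% of control. HFCF males had 86.4, 95.7 and 110.2 CPM in controls and 53.2, 60.3 and 61.4 in labelled knockouts, or 60.2%. Neither pair overlapped. On the HF diet control females had 90.2, 55.5, 54.4 and 49.4 CPM and labelled knockouts 41.5, 40.3, 40.6 and 36.3, or 63.6%. On the HFCF diet control females had 87.2, 94.1, 67.3 and 89.2 CPM and labelled knockouts 31.3, 51.4, 45.1 and 44.1, or 50.9%. Both of these female pairs were separate, and the highest HF control was replicate 1. On the LF diet 24.2, 33.03, 40.6 and 39.9 CPM in controls overlapped with 36.7, 29.5, 30.3 and 22.9 in labelled knockouts.

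Gprc5b (chromosome 7, 118972047 to 118995211) had 19.98, 22.7 and 30.6 CPM as lowest, median and highest in HF control males and 1.43, 2.08 and 2.46 in labelled knockouts, or 8.09% of control. HFCF control males had 4.83, 10.8 and 12.3 CPM and labelled knockouts 2.06, 3.65 and 4.94, or 36.8%. The HF pair was separate, and the lowest HFCF control, replicate 1, lay inside the labelled-knockout range. HF control females had 18.5, 1.55, 1.56 and 0.796 CPM and labelled knockouts 1.24, 2.70, 0.882 and 0.703. Control replicate 1 was far above the other 3 controls, which lay inside the labelled-knockout range, and the share of control went from 24.7% to 106% without it. HFCF control females had 15.5, 16.5, 8.96 and 13.01 CPM and labelled knockouts 1.25, 4.72, 4.16 and 3.61, or 25.4%, with no overlap. LF values of 3.59, 0.523, 0.899 and 1.97 CPM in controls overlapped with 1.68, 1.20, 0.734 and 1.91. Reads were counted without strand, and Iqck, which overlaps Gprc5b, held 4.12% as many reads.

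Limk1 (chromosome 5, 134656039 to 134688598) had 12.3, 15.95 and 19.7 CPM as lowest, median and highest in HF control males and 2.79, 3.46 and 4.42 in labelled knockouts, or 22.1%. HFCF males had 9.79, 17.9 and 21.4 CPM in controls and 3.57, 6.39 and 8.95 in labelled knockouts, or 38.7%. Neither male pair overlapped, and the lowest HFCF control was again replicate 1. Female controls on HF had 8.54, 2.17, 3.18 and 2.33 CPM and labelled knockouts 2.31, 2.70, 3.23 and 3.52; the share of control went from 72.6% to 115% without control replicate 1. Female controls on HFCF had 8.64, 8.14, 6.49 and 9.01 CPM and labelled knockouts 3.24, 7.45, 5.59 and 6.23, or 69.7%. On the LF diet controls had 5.60, 3.79, 4.19 and 2.85 CPM and labelled knockouts 3.90, 3.41, 2.81 and 5.23. All 3 female pairs overlapped.

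Of the 14 genes of the LIM kinase and cofilin pathway, 3 were lower with no overlap in HF males: Limk1, the related kinase Tesk1 (10.5 ± 1.02 against 13.1 ± 1.22 CPM) and Rock2, which activates LIM kinases (38.5 ± 3.16 against 50.04 ± 2.56 CPM). Tesk2 was higher with no overlap (15.9 ± 1.004 against 12.8 ± 1.03 CPM). Limk2, the other LIM kinase (12.7 ± 1.13 against 11.6 ± 1.59 CPM), and cofilin itself, Cfl1 (214 ± 18.7 against 219.8 ± 8.92 CPM), overlapped. The list's median log2 change was -0.07 in HF males and 0.02 in HFCF males, where Limk1 and the cofilin phosphatase Ssh3 (22.8 ± 0.577 against 24.4 ± 0.442 CPM) were lower with no overlap and the kinase Rock1 (52.2 ± 1.83 against 47.01 ± 1.26 CPM) was higher with no overlap.

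Kbtbd11 (chromosome 8, 15011025 to 15033333) had 6.98, 8.45 and 12.5 CPM as lowest, median and highest in HF control males and 0.683, 0.873 and 1.43 in labelled knockouts, or 10.5%. HFCF males had 4.59, 10.1 and 12.4 CPM in controls, the lowest being replicate 1, and 1.33, 2.18 and 3.16 in labelled knockouts, or 22.3%. The groups were separate on both diets. On the HFCF diet control females had 6.66, 7.69, 4.84 and 5.12 CPM and labelled knockouts 1.10, 1.89, 1.98 and 2.47, or 30.6%, also separate. On the HF diet control females had 6.11, 0.929, 1.99 and 0.858 CPM and labelled knockouts 1.99, 0.921, 2.11 and 0.422; they overlapped, and the share of control went from 54.98% to 108% without control replicate 1. LF values of 4.42, 2.88, 1.98 and 1.21 CPM in controls overlapped with 1.80, 1.67, 1.77 and 1.48. Genes that overlap Kbtbd11 held 6.42% as many reads.

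Unc119 (chromosome 11, 78343482 to 78349164) had 16.5, 17.7 and 20.1 CPM as lowest, median and highest in HF control males and 6.31, 7.39 and 8.52 in labelled knockouts, or 40.4%. HFCF males had 14.1, 15.6 and 18.97 CPM in controls and 7.99, 9.53 and 11.6 in labelled knockouts, or 60.1%. HFCF control females had 13.5, 14.1, 14.5 and 13.9 CPM and labelled knockouts 9.78, 9.84, 8.31 and 10.4, or 68.5%. All 3 of these pairs were separate. HF control females had 15.5, 6.501, 6.97 and 5.27 CPM and labelled knockouts 5.002, 8.62, 7.25 and 6.61, which is 80.3% of control and 110.0% without control replicate 1. LF controls had 4.95, 7.39, 6.05 and 5.26 CPM and labelled knockouts 7.86, 4.01, 7.77 and 6.27, with the higher mean in labelled knockouts. Of the 7 genes of the UNC119 and ARL cargo pathway, Unc119 was the only 1 lower with no overlap in HF males, and its paralog Unc119b was at 42.4 ± 2.68 against 47.1 ± 2.96 CPM.

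Rufy4 (chromosome 1, 74125541 to 74148223) had 2.13, 2.82 and 3.62 CPM as lowest, median and highest in HF control males and 0.195, 0.346 and 0.478 in labelled knockouts, or 11.9%. HFCF males had 1.96, 2.79 and 3.73 CPM in controls and 0.0494, 0.225 and 0.386 in labelled knockouts, or 7.93%, which is 314 against 25 reads over 6 libraries each. Both were separate. Female controls on HF had 3.46, 2.23, 2.12 and 1.23 CPM and labelled knockouts 0.592, 0.724, 0.539 and 0.492, or 25.98%. Female controls on HFCF had 2.52, 3.04, 1.80 and 3.89 CPM and labelled knockouts 0.441, 0.447, 1.09 and 0.206, or 19.4%. These were separate too, while LF values of 0.707, 2.49, 2.16 and 2.19 CPM in controls overlapped with 1.26, 1.40, 1.53 and 2.15.

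Sdcbp2 (chromosome 2, 151572622 to 151590005) had 2.37, 4.01 and 6.36 CPM as lowest, median and highest in HF control males and 0, 0.162 and 0.344 in labelled knockouts, or 4.09% (426 against 16 reads). HFCF males had 1.47, 11.3 and 13.3 CPM in controls and 0.0532, 0.418 and 0.628 in labelled knockouts, or 3.94%. Both pairs were separate, although HFCF control replicate 1 was far below the other 5 controls, which lay between 9.64 and 13.3 CPM. On the HFCF diet control females had 1.14, 3.49, 1.55 and 2.40 CPM and labelled knockouts 0.441, 0.149, 0.0495 and 0, or 7.46%, also separate. On the HF diet control females had 2.02, 0.310, 0.187 and 0.306 CPM and labelled knockouts 0, 0, 0.0980 and 0.0703. That is 3 reads against 48, a ratio per depth of 5.97% with a 95% exact interval of 1.19% to 18.5%, and without control replicate 1 it is 16.6% (3.03% to 60.3%). These intervals cover counting error only and show how few reads lie behind the value; they are no test of the contrast, which chose the gene. In LF females the labelled knockouts and the controls had 12 reads each, and they overlapped. Of the 7 genes of the syntenin and syndecan list, Sdcbp2 was the only 1 lower with no overlap in HF males; its paralog Sdcbp was at 73.3 ± 5.41 against 77.4 ± 5.51 CPM, and the cell surface proteoglycan Sdc2 was higher with no overlap at 238 ± 17.05 against 153 ± 14.3 CPM.

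The window before the start of Sdcbp2 is shown because this gene had the lowest share of control in both male comparisons. It holds no DR1 match with up to 3 mismatches. Capitals mark CCAAT, here on the other strand and so read as ATTGG, and GGGCGG, a GC box. On both strands together CCAAT occurs in 33.8% and GGGCGG in 32.7% of all windows of this length.
Sdcbp2 chr2:151572373-151572622 (GRCm38.p6, + strand): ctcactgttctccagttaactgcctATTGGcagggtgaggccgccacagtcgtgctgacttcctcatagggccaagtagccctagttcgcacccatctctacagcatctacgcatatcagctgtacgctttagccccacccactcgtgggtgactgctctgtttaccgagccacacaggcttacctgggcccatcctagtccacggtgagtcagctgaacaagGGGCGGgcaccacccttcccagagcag

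Hspb1 (chromosome 5, 135887919 to 135889563) had 50.9, 53.4 and 67.5 CPM as lowest, median and highest in HF control males and 19.01, 28.8 and 34.1 in labelled knockouts, or 49.1%. HFCF males had 72.6, 76.5 and 92.6 CPM in controls and 27.2, 33.96 and 39.5 in labelled knockouts, or 41.3%. HF control females had 41.1, 37.3, 34.8 and 29.7 CPM and labelled knockouts 20.01, 19.5, 9.26 and 25.5, or 52.01%. These 3 pairs were separate. HFCF control females had 54.6, 64.8, 52.3 and 61.2 CPM and labelled knockouts 63.2, 28.6, 30.03 and 52.8; they overlapped, and the highest labelled knockout was replicate 1. LF controls had 28.2, 27.5, 37.6 and 30.4 CPM and labelled knockouts 16.8, 10.3, 32.3 and 20.8, with 3 of 4 labelled knockouts below the lowest control. Per kilobase of gene length, Hspb1 had the highest level of the 10 in HF control males, at 55.4 CPM per kilobase, followed by Ermp1 at 11.2, with Rufy4 lowest at 1.22.

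The window before the start of Hspb1 is shown because, alone among the 13 windows, it holds GAANNTTC, the letters of paired heat shock factor repeats, which occur in 6.69% of all windows. Capitals mark its matches and 4 GC boxes (GGGCGG on either strand).
Hspb1 chr5:135887669-135887918 (GRCm38.p6, + strand): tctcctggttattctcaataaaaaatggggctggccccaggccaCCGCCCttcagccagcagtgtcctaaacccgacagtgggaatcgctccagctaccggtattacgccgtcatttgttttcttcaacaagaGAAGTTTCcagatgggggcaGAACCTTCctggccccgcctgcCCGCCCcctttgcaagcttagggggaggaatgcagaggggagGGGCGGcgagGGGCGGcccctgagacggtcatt
Of the 12 heat shock genes, Hspb1 was the only 1 lower with no overlap in HF males, and Hspb8, another small heat shock protein, was higher with no overlap at 207 ± 27.5 against 155 ± 11.8 CPM. The chaperones Hsp90aa1 (178 ± 32.1 against 164 ± 32.7 CPM) and Hspa1b (6.30 ± 1.22 against 6.88 ± 1.95 CPM) overlapped. In HFCF females 0 of the 12 were lower with no overlap.

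Olig1 (chromosome 16, 91269772 to 91271933) had 10.1, 16.3 and 21.8 CPM as lowest, median and highest in HF control males and 2.81, 3.70 and 6.49 in labelled knockouts, or 25.2%. HFCF males had 11.97, 15.8 and 28.5 CPM in controls, the highest being replicate 1, and 4.55, 5.23 and 5.79 in labelled knockouts, or 30.3%. Both were separate. Female controls on HF had 10.3, 4.46, 8.47 and 6.80 CPM and labelled knockouts 1.88, 2.83, 1.91 and 1.83, or 28.1%. Female controls on HFCF had 8.09, 9.05, 10.1 and 8.26 CPM and labelled knockouts 5.29, 2.43, 3.02 and 2.47, or 37.2%. These were separate as well, while LF values of 4.24, 3.99, 2.34 and 3.56 CPM in controls overlapped with 3.90, 2.07, 2.39 and 1.91. The summed level of 5 oligodendrocyte and Schwann cell markers was 5.45 to 7.70 CPM in HF control males, with Mog and Sox10 at 0 in every library of that group.

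Ordered by group mean, Kbtbd11, Olig1, Limk1, Hspb1 and Sdcbp2 were highest in HFCF control males, at 9.82 ± 2.82, 17.2 ± 5.86, 16.9 ± 3.93, 79.1 ± 7.08 and 9.98 ± 4.39 CPM in that order (SD, n = 6). For Kbtbd11, Olig1 and Limk1 the gap to the next group, HF control males, was smaller than the larger SD, and for Hspb1 and Sdcbp2 it was larger. Ermp1, Rufy4, Gprc5b and Unc119 were highest in HF control males. Rufy4 had its 5 control groups first, each closer to the next than the larger SD. Gal3st1 was highest in HFCF control females, at 12.7 ± 2.25 CPM (SD, n = 4), within the SD of HFCF control males. The lowest mean was in HF labelled-knockout females for Gal3st1, Olig1, Gprc5b, Limk1, Hspb1 and Sdcbp2. For each of these the gap to the next group was smaller than the larger SD. Gprc5b had 1.38 CPM there and 1.38 in LF labelled-knockout females.

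Diet was tested within 1 sex and genotype with edgeR's quasi-likelihood test, adjusted over all genes by Benjamini-Hochberg, and a call is an adjusted p under 0.05. The HFCF against HF and the HF against LF comparisons share HF libraries, and all share libraries with the contrast that chose the genes. A choice for high controls and low labelled knockouts can thus tilt the direction of these changes. From HF to HFCF in control males 3 of 10 were called, where 22.3% of all genes were (13.0% higher and 9.31% lower). Hspb1 rose by 0.50 ± 0.08 on the log2 scale (SE, adjusted p = 0.00156), with 6 of 6 HFCF livers above the HF mean. Sdcbp2 rose by 1.36 ± 0.37 (adjusted p = 0.0178, 5 of 6 above it), and by 1.58 ± 0.19 without HFCF control replicate 1. Gprc5b fell by 1.24 ± 0.19 (adjusted p = 0.00112, 6 of 6 below the HF mean), from 24.3 to 10.1 CPM with no overlap. The other 7 had log2 changes from -0.15 to 0.19.

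Among labelled-knockout males 6 of the 8 genes past the filter rose from HF to HFCF (21.6% of all genes were called higher and 41.7% called in all). They were Kbtbd11 (1.21 ± 0.26 on the log2 scale, SE), Gal3st1 (1.02 ± 0.24), Gprc5b (0.93 ± 0.21), Limk1 (0.91 ± 0.20), Unc119 (0.41 ± 0.11) and Ermp1 (0.40 ± 0.06). Their edgeR adjusted p ran from 7.75e-05 for Ermp1 to 0.00771 for Unc119, and in each of them 6 of 6 HFCF livers were above the HF mean. Olig1 (0.40 ± 0.18, adjusted p = 0.0892) and Hspb1 (0.24 ± 0.14, adjusted p = 0.177) did not pass. Rufy4 and Sdcbp2 were below the filter, at 0.217 and 0.393 CPM on the HFCF diet. Gprc5b fell in control males and rose in labelled-knockout males, and the difference between these changes was not tested.

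**Figure D3:**
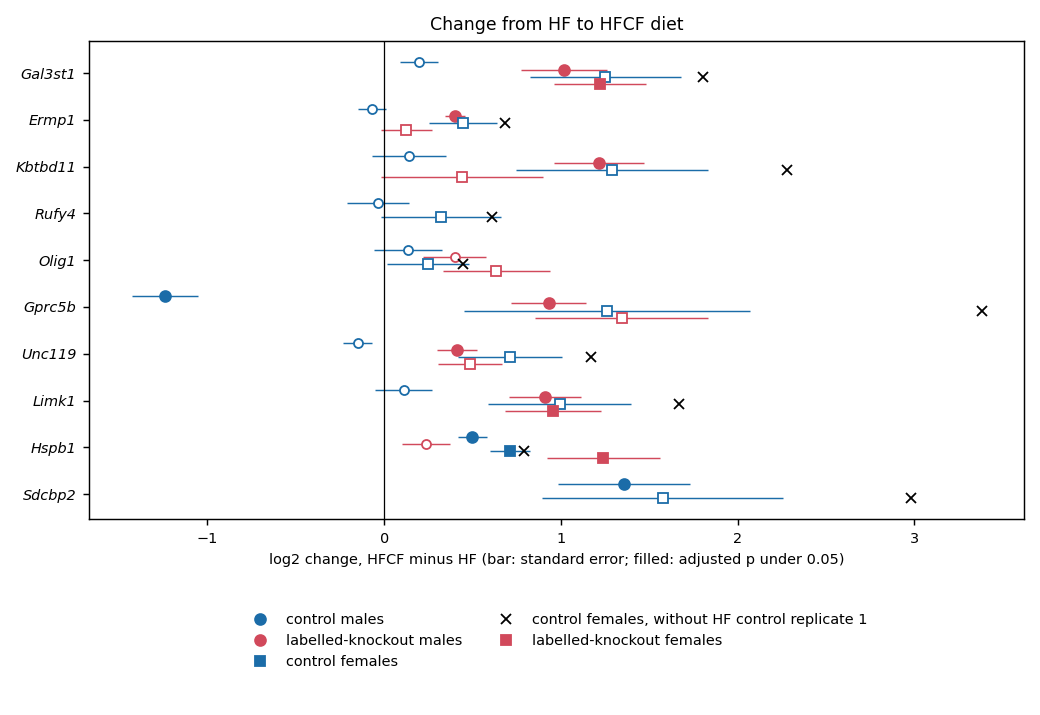
Log2 change from HF to HFCF diet (horizontal axis) with its standard error for each gene (vertical axis) in the 4 combinations of sex and genotype; filled symbols have an adjusted p under 0.05, and crosses are control females without HF control replicate 1. Gprc5b in control males is the only filled symbol below 0, and the crosses of Gprc5b, Sdcbp2 and Kbtbd11 lie at 3.38, 2.98 and 2.28.

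In control females 1 of 10 was called from HF to HFCF, Hspb1 at 0.71 ± 0.11 (SE, adjusted p = 0.00561, 4 of 4 above the HF mean), where 30.8% of all genes were called; 7 members had an unadjusted p under 0.05. All 10 log2 changes were above 0. Without HF control replicate 1, 8 of 10 were called, all higher (43.6% of all genes): Gprc5b at 3.38 ± 0.29, Sdcbp2 at 2.98 ± 0.51, Kbtbd11 at 2.28 ± 0.32, Gal3st1 at 1.80 ± 0.32, Limk1 at 1.67 ± 0.20, Unc119 at 1.17 ± 0.13, Hspb1 at 0.79 ± 0.11 and Ermp1 at 0.68 ± 0.12. Sdcbp2 passed the filter on low counts through the HFCF group, and without replicate 1 its HF controls held 13 reads in all. Olig1 and Rufy4 were not called with or without that library. In labelled-knockout females 3 of 8 rose (14.5% of all genes called, 8.44% higher and 6.01% lower): Hspb1 by 1.24 ± 0.32 (adjusted p = 0.0299), Gal3st1 by 1.22 ± 0.26 (adjusted p = 0.0144) and Limk1 by 0.95 ± 0.27 (adjusted p = 0.0415). Without HFCF labelled-knockout replicate 1 the count was 5, with Gprc5b and Ermp1 added (29.1% of all genes). It was 1 without HF labelled-knockout replicate 1 or HFCF labelled-knockout replicate 4, shares of all genes not given.

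Cell type markers moved in the same comparisons. All 6 cholangiocyte markers were called higher on the HFCF diet in control males, labelled-knockout males and control females, and 5 of the 5 tested in labelled-knockout females. Of the 8 stellate cell and fibroblast markers, 6, 7, 3 and 7 were called higher in these 4 comparisons, and of the 7 hepatocyte markers 4, 6, 6 and 0 were called lower. Of the 8 Kupffer cell and macrophage markers 4, 5, 4 and 1 were called higher, and 2 lower in labelled-knockout males. Of the 7 endothelial markers 0, 1, 5 and 2 were called higher. All 5 red blood cell markers were called lower in labelled-knockout males, with a median log2 change of -1.46, and 0 of 5 in the other 3 comparisons. Their sums in HF labelled-knockout males were 805, 616 and 815 CPM in replicates 3, 4 and 5. Replicates 1, 2 and 6 had 164, 186 and 186 CPM, and HFCF labelled-knockout males had 175 to 251. The summed stellate markers had medians of 694 CPM in HF and 1151 CPM in HFCF control males, and of 315 and 1175 CPM in control females. Their part in the members' changes was not tested.

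From LF to HF, measured in females only, 0 of the 9 members tested were called in controls and 0 of 9 in labelled knockouts by edgeR (0.696% and 0.155% of all genes). By direction that is 0.443% higher and 0.253% lower in controls, and 0.0704% higher and 0.0844% lower in labelled knockouts. In each 2 members had an unadjusted p under 0.05, and DESeq2's Wald test called 2 and 1. The share of all genes called by the Wald test is not given, so its counts are not read as results about the members. In controls Ermp1 had a log2 change of 0.87 ± 0.22 (SE, adjusted p = 0.0976) and Olig1 of 1.10 ± 0.28 (adjusted p = 0.105), and for both the 4 HF livers were above the 4 LF livers. Without HF control replicate 1 the count was again 0 (0.777% of all genes), with Ermp1 at 0.64 ± 0.16 and Olig1 at 0.91 ± 0.27. Leaving that library out moved Gprc5b from 1.69 ± 0.98 to -0.42 ± 0.59, Limk1 from 0.00 ± 0.43 to -0.67 ± 0.28, Kbtbd11 from -0.06 ± 0.63 to -1.04 ± 0.49 and Rufy4 from 0.28 ± 0.42 to -0.01 ± 0.42, none of them called either way. In labelled knockouts Rufy4 had a log2 change of -1.42 ± 0.31 (adjusted p = 0.0980), with every HF liver below every LF liver.

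Male and female livers were compared within 1 diet and genotype. Sex and any difference in how male and female mice were handled cannot be told apart. The same libraries entered the contrast that chose the genes, where 10 were separate in HF males and 5 in HF females. A choice for high controls can thus tilt the direction of differences between control groups. Among HF controls 8 of 10 were higher in males by edgeR's test (18.1% of all genes called, 8.52% higher and 9.58% lower in males). The log2 differences were 2.46 ± 0.55 for Sdcbp2 (SE), 2.10 ± 0.65 for Gprc5b, 1.96 ± 0.34 for Limk1, 1.86 ± 0.45 for Kbtbd11, 1.07 ± 0.24 for Unc119, 1.07 ± 0.23 for Olig1, 0.74 ± 0.16 for Ermp1 and 0.67 ± 0.11 for Hspb1. Their adjusted p ran from 0.00190 to 0.0417, and in each 6 of 6 males were above the female mean. Gal3st1 at 1.04 ± 0.35 (adjusted p = 0.0555) and Rufy4 at 0.32 ± 0.26 (adjusted p = 0.394) did not pass. Without HF control female replicate 1, 9 were called, Gal3st1 being added (34.4% of all genes), and Gprc5b was at 4.22 ± 0.24 and Sdcbp2 at 3.86 ± 0.44. Sdcbp2 had only 35, 5, 3 and 5 reads in the HF control females and passed the filter on low counts through the males. Its log2 differences rest on these few female reads.

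Other genes differed between HF control males and females too. Pparg was higher in males by 0.87 ± 0.14 on the log2 scale (SE, edgeR adjusted p = 0.00182, 6 of 6 males above the female mean). Of the 20 lipid genes associated with PPARG 9 were called higher and 1 lower (8.52% and 9.58% of all genes). The summed hepatocyte markers were 62644 to 87837 CPM in males and 91834 to 111146 in females, with no overlap, and 2 of the 7 were called lower in males. The summed stellate markers had medians of 694 CPM in males and 315 in females; their ranges of 534 to 782 and 246 to 909 overlapped through female replicate 1, and 0 of the 8 were called. Of the 7 endothelial markers 2 were called higher in males. On the HFCF diet the hepatocyte sums of controls overlapped, at 40101 to 65328 CPM in males and 54984 to 69594 in females. On that diet 3 of the 20 lipid genes were called higher in control males (1.30% of all genes). Their part in the members' sex differences was not tested.

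Among HFCF controls 4 of 10 were higher in males (2.63% of all genes called, 1.30% higher and 1.34% lower): Sdcbp2 by 2.24 ± 0.50 on the log2 scale (SE), Limk1 by 1.09 ± 0.19, Olig1 by 0.96 ± 0.20 and Hspb1 by 0.46 ± 0.09. Their edgeR adjusted p ran from 0.00812 to 0.0319, with 5 of 6 males above the female mean for Sdcbp2 and 6 of 6 for the others. The count was 5 without HFCF control male replicate 1, with Kbtbd11 added, where 4.24% of all genes were called. It was 1 without HFCF control female replicate 1, and 2 without male replicate 2 or 6 or female replicate 5 of that diet, shares of all genes not given. Among labelled knockouts 1 of 8 was called on each diet. It was Olig1 on HF (0.91 ± 0.26, adjusted p = 0.0359, 14.3% of all genes called, 7.32% higher and 7.02% lower) and Ermp1 on HFCF (0.46 ± 0.11, adjusted p = 0.0350, 5.40% of all genes called), both higher in males. Either count ranged from 0 to 2 when libraries were left out one at a time. On HFCF it was 2 without labelled-knockout female replicate 1, with Olig1 added, where 6.93% of all genes were called.

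**Figure D4:**
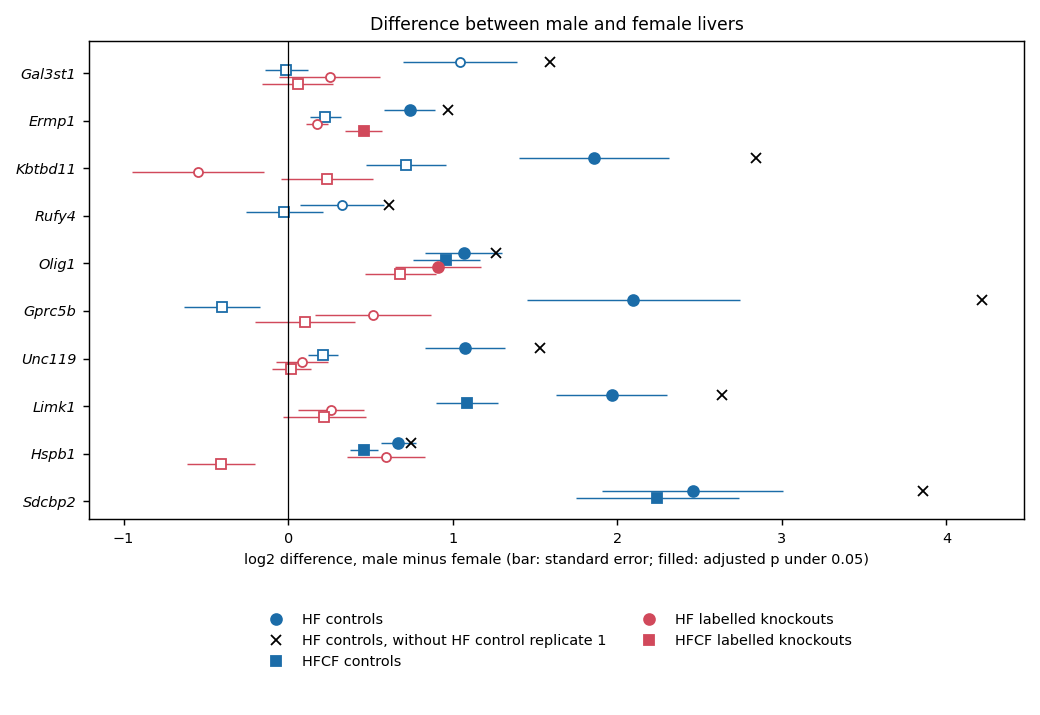
Log2 difference, male minus female (horizontal axis), with its standard error for each gene (vertical axis), by diet and genotype; filled symbols have an adjusted p under 0.05, and crosses are HF controls without female replicate 1. All 10 HF control symbols lie above 0 and 8 are filled, and the open symbols of the labelled knockouts lie between -0.55 and 0.68.

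Whether the change from HF to HFCF differed between the sexes was tested as an interaction. In controls 0 of 10 were called by edgeR with all libraries, 6 had an unadjusted p under 0.05, and 0.00646% of all genes were called. The estimates, male minus female, were all below 0, from -2.50 ± 0.72 for Gprc5b (log2, SE, adjusted p = 0.181) to -0.10 ± 0.32 for Olig1. Without HF control female replicate 1, 6 were called (10.8% of all genes): Gprc5b at -4.61 ± 0.39 (adjusted p = 2.45e-06), Kbtbd11 at -2.12 ± 0.42, Gal3st1 at -1.59 ± 0.30, Limk1 at -1.54 ± 0.29, Unc119 at -1.31 ± 0.14 and Ermp1 at -0.74 ± 0.14. In labelled knockouts 0 of 8 were called, 2 had an unadjusted p under 0.05, and 0.0130% of all genes were called (0.00649% higher and 0.00649% lower).

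Lipid genes associated with PPARG are given beside the members. Of 20, 15 were lower with no overlap in HF males (4.09% of all genes), 9 in HFCF males (1.35%) and 1 in LF females (0.966%). In HF females it was 7 (3.16%) and in HFCF females 11 (3.49%). These counts are over all 20, while the shares are over genes past the filter on low counts. All 20 passed it in both male comparisons, 17 in LF females, 17 in HF females and 18 in HFCF females. Their median log2 change in HF males was -1.43. Cidec, which enlarges lipid droplets, was at 5.24 ± 0.797 against 134 ± 15.7 CPM in HF males and 26.8 ± 11.8 against 159.8 ± 8.20 in HFCF males. Plin4, a lipid droplet coat protein, was at 9.88 ± 4.13 against 146 ± 5.29 CPM and 17.1 ± 4.51 against 127 ± 10.1. From HF to HFCF, edgeR called 3 of 20 tested higher in control males (13.0% of all genes) and 11 of 18 in labelled-knockout males (21.6%). Cidec changed by 0.28 (adjusted p = 0.0154) in the former and 2.38 (adjusted p = 8.92e-06) in the latter on the log2 scale, and Plin4 by -0.17 (adjusted p = 0.0550) and 0.81 (adjusted p = 0.0123).

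Of 20 family relatives of the members, 10 passed the filter on low counts in HF males, and 11, 10, 11 and 14 in HFCF males and in LF, HF and HFCF females. None of the 20 was lower with no overlap in these comparisons, and those below the filter had few reads and so little room to be lower. In HF males 2 were higher with no overlap, Rufy3, a relative of Rufy4, at 84.4 ± 3.005 against 69.2 ± 7.28 CPM, and Gprc5c, a relative of Gprc5b, at 101 ± 7.48 against 83.2 ± 5.91 CPM. Rufy1 (28.1 ± 2.08 against 27.6 ± 0.827 CPM) and Hspb6 (14.7 ± 2.03 against 14.5 ± 2.27 CPM) overlapped there.

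Within groups, the log2 level of each member was compared with the log2 summed level of the markers of 5 cell types (hepatocytes, Kupffer cells and macrophages, stellate cells and fibroblasts, sinusoidal endothelium, cholangiocytes) over 48 libraries, as deviations from the group mean, which is 50 relations; p came from 100000 permutations within groups, whose smallest possible value is 1e-05. Gprc5b against the stellate cell and fibroblast markers had r = 0.84 (permutation p = 1e-05, adjusted p = 0.000167) and rho = 0.70 (permutation p = 2e-05, adjusted p = 0.000333). Against the cholangiocyte markers it had r = 0.82 (permutation p = 1e-05, adjusted p = 0.000167) and rho = 0.80 (permutation p = 1e-05, adjusted p = 0.00025). These were the highest r of the 50.

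Limk1 against the cholangiocyte markers had r = 0.80 (permutation p = 1e-05, adjusted p = 0.000167) and rho = 0.69 (permutation p = 1e-05, adjusted p = 0.00025), and against the stellate markers r = 0.75 (permutation p = 5e-05, adjusted p = 0.000625) and rho = 0.54 (permutation p = 0.00055, adjusted p = 0.0055). Kbtbd11 against the stellate markers had r = 0.70 (permutation p = 0.00023, adjusted p = 0.0023) and rho = 0.58 (permutation p = 0.00037, adjusted p = 0.00462). For the stellate relation of Gprc5b, Limk1 and Kbtbd11, r was 0.75, 0.62 and 0.55 without the 2 libraries farthest from the median of the markers. It was 0.77, 0.80 and 0.57 in the 24 males and 0.87, 0.74 and 0.74 in the 24 females. Both sexes thus had values above 0 for all 3. Olig1 against the stellate markers had r = 0.07 (permutation p = 0.717, adjusted p = 0.84) and rho = -0.07 (permutation p = 0.679, adjusted p = 0.855), with -0.47 in males and 0.38 in females. Against the hepatocyte markers the relation was negative for Ermp1, with r = -0.46 (permutation p = 0.00419, adjusted p = 0.0262) and rho = -0.43 (permutation p = 0.00947, adjusted p = 0.0526), for Limk1, with r = -0.45 (permutation p = 0.00355, adjusted p = 0.0254) and rho = -0.38 (permutation p = 0.0141, adjusted p = 0.0704), and for Kbtbd11, with r = -0.42 (permutation p = 0.00233, adjusted p = 0.0194) and rho = -0.42 (permutation p = 0.00668, adjusted p = 0.0417). By sex, r for Ermp1 was -0.03 in males and -0.67 in females, for Limk1 -0.42 and -0.47, and for Kbtbd11 -0.52 and -0.38. The value of Ermp1 in males was thus near 0. The female values include HFCF labelled-knockout female replicate 1, whose hepatocyte markers were far above its group, and were not computed without it. Ermp1 against the cholangiocyte markers had r = 0.49 (permutation p = 0.00814, adjusted p = 0.0407) and rho = 0.47 (permutation p = 0.0032, adjusted p = 0.0267). Sdcbp2 against them had r = 0.54 (permutation p = 0.00508, adjusted p = 0.0282) and rho = 0.46 (permutation p = 0.00593, adjusted p = 0.0417). Without HF control female replicate 1 and HFCF control male replicate 1 these r were 0.35 and 0.22. Both sides of each relation share a library and its depth.

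**Figure D5:**
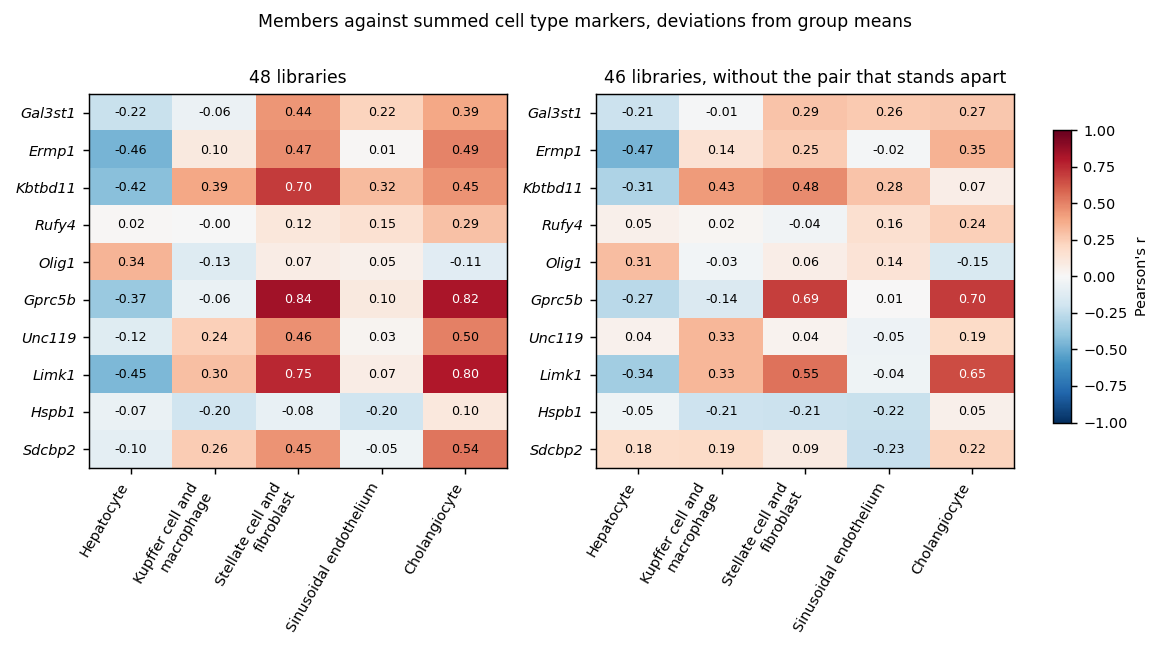
Pearson's r between each gene (vertical axis) and the summed markers of 5 cell types (horizontal axis), as deviations from group means, over 48 libraries (left) and 46 (right, without HF control female replicate 1 and HFCF control male replicate 1), coloured from -1 to 1. Gprc5b keeps 0.69 and 0.70 on the right in the stellate and cholangiocyte columns, and Limk1 keeps 0.55 and 0.65. In the stellate column Kbtbd11 goes from 0.70 (left) to 0.48 (right), Unc119 from 0.46 to 0.04 and Sdcbp2 from 0.45 to 0.09. HFCF labelled-knockout female replicate 1 is in both panels.

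Among the members themselves, the 45 pairs had a median r of 0.26 within groups, from -0.14 to 0.73, and a median of 0.02 without that pair of libraries. The highest was Gprc5b with Limk1, at 0.73, and 0.52 without them. For each member the genes with the most similar within-group pattern were picked as the highest r over 48 libraries, so these values carry no test; libraries share depth. Gprc5b was nearest to Mrc2 (0.89, and 0.84 without the pair) and Ltbp3 (0.89, 0.81). Limk1 was nearest to S100a11 (0.88, 0.80) and Loxl2 (0.85, 0.72), and Kbtbd11 to Ccdc80 (0.83, 0.73) and Ppp1r9b (0.83, 0.77). Those of the other members were lower with all libraries.

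Ermp1 was nearest to Siae (0.80, 0.76) and Arsg (0.80, 0.77), and Unc119 to Cd9 (0.74, 0.56) and Arl8a (0.73, 0.59). Olig1 was nearest to Mup21 (0.72, 0.72) and Men1 (0.72, 0.68), and Sdcbp2 to Itm2c (0.72, 0.52) and Ly6e (0.72, 0.62). For Gal3st1 they were Cryz (0.64, 0.58) and Tlr12 (0.64, 0.54), for Hspb1 Glt28d2 (0.60, 0.59) and Rnf215 (0.58, 0.61), and for Rufy4 Spc25 (0.57, 0.55) and Commd10 (0.57, 0.55). Without the pair the nearest gene was the same for Olig1, Gprc5b and Limk1 and another for the other 7.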

How the data were processed

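Whole-liver RNA of 48 mice was sequenced without strand information, per the labels' protocols. The authors deposited 11 tables, 1 per comparison, with raw read counts, a normalized signal (counts divided by 1 factor per library) and FPKM side by side, per the file headers. STAR 2.6.1, HTSeq 0.6.1, DESeq2 and the build GRCm38 (mm10) are named in the submitters' processing notes, with no role or order. The deposited signal and FPKM columns were used only to check the counts. The count columns were joined by gene identifier over 48 libraries; 1341082 values that recur between tables were compared and 0 differed.

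The counts were tested with edgeR 4.0.16 in R 4.3.3 (TMM, filterByExpr, quasi-likelihood test, Benjamini-Hochberg over all genes tested), with only the groups compared in each fit. CPM use TMM sizes computed over all 48 libraries, while each fit used TMM sizes of its own groups. Each library is 1 mouse, with 15338239 to 22072884 counts, and the median biological coefficient of variation was 0.174. On simulated counts for control males on HFCF against HF (14475 genes), 82% of genes changed by 1 and 95% of those changed by 2 on the log2 scale were recovered. For control females on HF against LF (14216 genes) it was 68% and 92%. For the interaction, the sex difference in the HF to HFCF change of controls (15491 genes), it was 46% and 80%. The plain comparisons of males with females were not simulated. The changed genes were drawn from those with a mean of at least 1 CPM, so these rates do not cover lower levels. The simulated spread was estimated without regard to group. Promoter windows are from RefSeq (GRCm38.p6).

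The members and gene lists were chosen with earlier results of these data known. Genes named are the members, Pparg, genes of the fixed lists and the 2 genes most like each member among those with a mean of at least 1 CPM and a symbol that is not of a predicted gene. Leaving out HF control female replicate 1 beside the full counts, both libraries that stood apart in the correlations, and the block without that female library were chosen after seeing the data. Correlations used log2 CPM with a prior count of 2. Alternatives were DESeq2 1.42.0 (its size factors and its Wald test), no filter, a stricter filter, all groups in 1 fit, a replicate block and leaving out each library.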

Additional observations from a re-analysis of the deposited data

Results flagged for a closer look

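A single library stood apart from its group in 10 of the 100 combinations of gene and group by Dixon's test at 95%. The test's nominal rate is about 1 in 20, and flags of 1 library are not independent. Over the 16236 genes kept, HF control female replicate 1 was flagged for 4.24% and HFCF control male replicate 1 for 8.85%. HFCF labelled-knockout female replicate 1, which stayed in the correlations, was flagged for 7.09%. LF labelled-knockout female replicate 1 was flagged for 1.28% and HF labelled-knockout female replicate 2 for 1.01%. HF control female replicate 1 was high for Ermp1 (90.2 CPM, the other 3 at 49.4 to 55.5), Gprc5b (18.5, others 0.796 to 1.56), Unc119 (15.5, others 5.27 to 6.97), Limk1 (8.54, others 2.17 to 3.18) and Sdcbp2 (2.02, others 0.187 to 0.310). HFCF control male replicate 1 was low for Kbtbd11 (4.59 CPM, the other 5 at 9.54 to 12.4) and Sdcbp2 (1.47, others 9.64 to 13.3) and high for Olig1 (28.5, others 11.97 to 16.999). LF labelled-knockout female replicate 1 was high for Gal3st1 (3.84 CPM, others 1.90 to 2.07), and HF labelled-knockout female replicate 2 was high for Olig1 (2.83 CPM, others 1.83 to 1.91).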

How the results depend on the processing

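The counts of members called by edgeR depended most on single libraries. All genes called changed too, as from 30.8% to 43.6% in control females from HF to HFCF without HF control replicate 1. Shares of all genes under the other settings below are not given, so those counts are not read as results about the members. In control females from HF to HFCF the count was 1 and ranged from 1 to 8 when each library was left out. It was 2 with DESeq2's size factors, 4 with DESeq2's Wald test, 2 with no filter and 4 with all groups of that sex in 1 fit. From LF to HF it was 0 in control females, and 2 with DESeq2's Wald test and 2 with all groups of that sex. In labelled-knockout females from LF to HF it was 0, and 1 with DESeq2's Wald test. In labelled-knockout females from HF to HFCF it was 3 and ranged from 1 to 5. Between the sexes it ranged from 1 to 5 among HFCF controls, from 0 to 2 among HF labelled knockouts and from 0 to 2 among HFCF labelled knockouts, where DESeq2's Wald test and the fit of all 10 groups each gave 2. The interaction in controls ranged from 0 to 6. Members lower with no overlap in LF females ranged from 0 to 1. In control males from HF to HFCF the count was 3 whichever library was left out.

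Replicate numbers are shared between groups, but same-numbered libraries correlated from -0.246 to 0.371 and no comparison had every pair above 0.1, so the numbers were not taken as pairs. With the number as a replicate block the count was 0 in control females from HF to HFCF, or 7 without HF control replicate 1, an alternative added after seeing the data. It was 2 in control males from HF to HFCF, where Sdcbp2, at 1.25 on the log2 scale, lost its call (edgeR adjusted p = 0.0614). It was 1 in labelled-knockout females from HF to HFCF, 0 among HFCF controls between the sexes, 0 among HF labelled knockouts and 0 among HFCF labelled knockouts. No share of all genes is given beside these block counts, and they are not read as results about the members. Of the values of single genes outside the fits that leave out a library, 13 lost their call, and 244 kept it or, where no test was made, moved by less than the spread between replicates.

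No called log2 change turned in sign under the alternatives run, while several that were not called did. Without HF control female replicate 1 the LF to HF changes of Gprc5b (-0.42), Limk1 (-0.67) and Rufy4 (-0.01) in controls turned negative. Without HFCF control male replicate 1 the change of Olig1 in control males (-0.06) and the interaction of Sdcbp2 in controls (0.02) turned. Without HFCF labelled-knockout female replicate 1 the sex difference of Gprc5b (-0.15) and the interaction of Olig1 (0.07) turned. Of the log2 differences between labelled knockouts and controls, which carry no test, those of Kbtbd11 (0.15), Gprc5b (0.08), Unc119 (0.14) and Limk1 (0.21) in HF females turned positive without control replicate 1. In LF females they turned for Gal3st1 (0.03 without control replicate 4), Gprc5b (0.28 without control replicate 1) and Limk1 (0.10 without control replicate 1, 0.03 without labelled-knockout replicate 3). Depth limits Rufy4 and Sdcbp2, which did not pass the filter in the labelled-knockout comparisons of HF and HFCF diets.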
